A study of Homo sapiens with 4 samples.

Results

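The genes described here are the clustered histone genes, every entry of the deposited gene table whose name starts with HIST followed by a digit. They number 71 of 23362 genes. Of these, 55 lie in the HIST1 cluster on chromosome 6, 12 in HIST2 and 3 in HIST3 on chromosome 1, and 1, HIST4H4, lies on chromosome 12. By protein they divide into 6 genes for the linker histone H1, 17 for H2A, 19 for H2B, 14 for H3 and 15 for H4. Levels are given as FPKM (fragments per kilobase of transcript, scaled for library size), and 32 of them reached 1 FPKM in some library and are called expressed.

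The libraries come from MKN28, a human gastric adenocarcinoma cell line that was made to express KIAA1324, a transmembrane glycoprotein, from a doxycycline-responsive (tet-on) viral vector. The 4 stable lines carried luciferase as the control (Luc), KIAA1324 wild-type (WT), KIAA1324 with 3 putative N-glycosylation asparagines changed to glutamine (3NQ), or KIAA1324 without its transmembrane domain (ΔTM). Each line gave 1 library, so no difference below has a replicate check, a p-value or an error. Whether doxycycline was added for the sequenced cells is not given in the sources used here.

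Core histones H2A, H2B, H3 and H4 form the protein spool around which DNA is wound, and H1 binds the linker DNA between spools. Most clustered histone genes are transcribed during DNA replication, have no introns, and give mRNA that ends in a conserved stem-loop in place of a poly(A) tail. Some of them also make polyadenylated transcripts that run or splice past the stem-loop, and these are known from cells that have stopped dividing. The libraries were made by capture on oligo(dT), so the FPKM of a histone gene here stands mainly for its polyadenylated transcripts and not for all of its mRNA.

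The stem-loop is the sequence that separates both kinds of mRNA, and it is shown for the gene of the highest level in the H1, H2A, H2B and H4 groups and for HIST1H3H of the H3 group. The 26 bases below are the sense strand of GRCh37, in order chr6:26055967-26055992 (minus strand), chr6:26124892-26124917 (plus), chr6:27114140-27114165 (minus), chr6:27778289-27778314 (plus) and chr6:26285354-26285379 (minus), with the 16 bases of stem, loop and stem in capitals.
HIST1H1C: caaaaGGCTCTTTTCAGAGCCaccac
HIST1H2AC: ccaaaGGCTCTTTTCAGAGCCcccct
HIST1H2BK: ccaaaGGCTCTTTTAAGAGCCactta
HIST1H3H: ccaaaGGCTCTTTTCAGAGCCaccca
HIST1H4H: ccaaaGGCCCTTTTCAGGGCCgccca

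A perfect stem of 6 base pairs that opens with GG and closes with CC around a loop of 4 bases stood within 120 bases after the stop codon in 64 of the 67 histone genes with a readable stop codon, against 0.275% of the 19248 other genes. It began a median of 35 bases after the stop codon (range 22 to 67). The first arm of the stem read GGCTCT in all 6 H1, 15 H2A, 15 H2B and 14 H3 genes with a stem-loop and GGCCCT in all 14 H4 genes. HIST2H2BF, HIST1H2AG and HIST1H2AK held no such stem in the window, and HIST2H2BA, HIST1H2BF, HIST1H2BG and HIST1H4F had no stop codon to read. Gene models were taken from GENCODE release 44 on GRCh37, which is newer than the annotation behind the FPKM values.

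In that annotation 17 histone genes had a transcript that runs at least 100 bases past the stem-loop or skips it, and 47 with a stem-loop had no such transcript. In 5 genes (HIST1H2AC, HIST1H2BD, HIST1H2BC, HIST1H2BJ and HIST1H2BN) the coding exon splices 3 to 23 bases after the stop codon, so that the stem-loop is left out of the mRNA. In HIST1H2AC that splice lies 8 bases after the stop codon, and in HIST1H2BD and HIST1H2BC it lies 9 bases after it. Others, among them HIST1H4H and HIST2H2BE, read straight through.

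The level of the histone genes rested on few members. Of the 71, 7 reached an FPKM of 5 in a library (9.86%, against 40.2% of all genes) and these 7 held 73.6% of the summed mean FPKM. A level of at least 1 was reached by 45.1% of histone genes and by 50.4% of all genes, so the histone genes differed from the table more in how high they stood than in how many were listed. The 7 were HIST1H2BK, HIST1H2AC, HIST1H1C, HIST3H2A, HIST1H2BD, HIST1H2BC and HIST1H4H. Of the 17 genes with a transcript past the stem-loop, 12 were expressed and 5 reached 5, with a median of the mean FPKM of 1.21. Of the 47 without, 17 were expressed and 2 (HIST1H1C and HIST1H2BK) reached 5, with a median of 0.427. HIST1H2BK spans 8547 bases in the deposited table, where the newer annotation gives it a single short transcript.

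**Figure D1:**
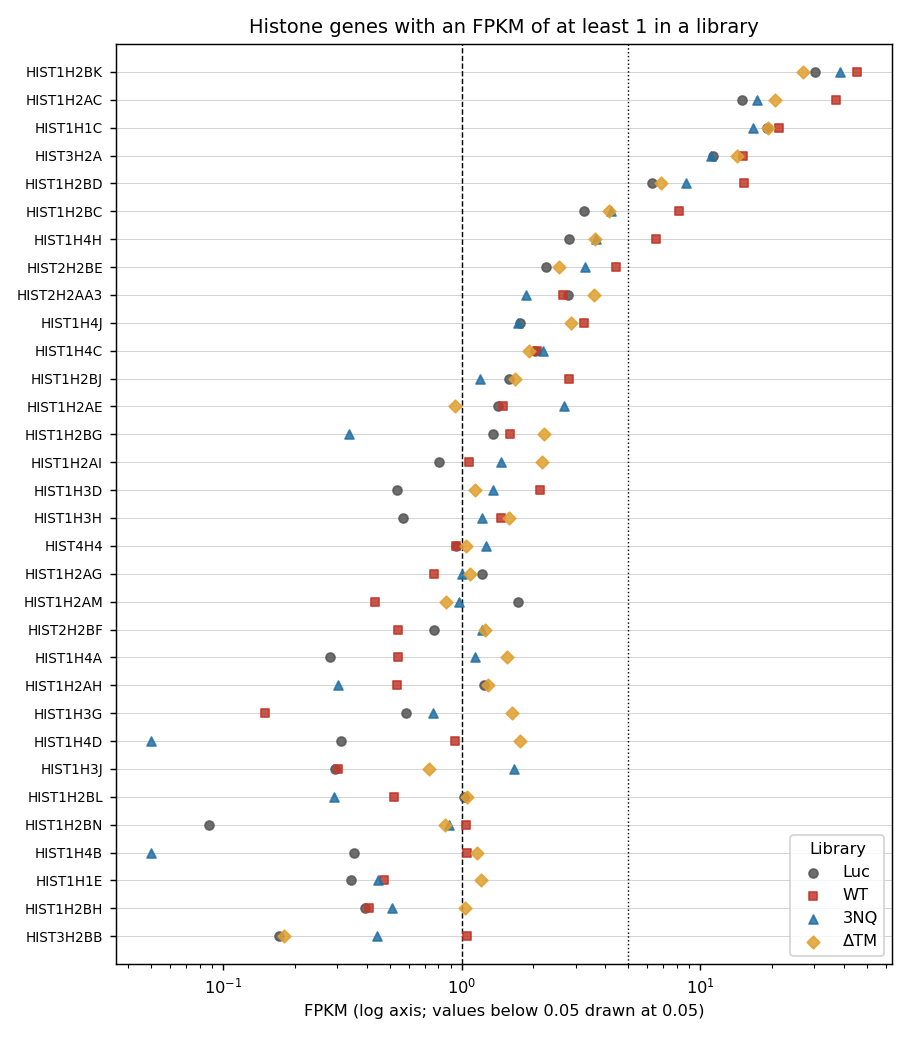
FPKM (log axis) of the 32 expressed histone genes, 1 point for each of the 4 libraries (ΔTM as labelled), ordered by mean. The dashed line marks 1 and the dotted line 5, and only the 7 genes at the top pass 5, while in most of the lower rows the points of the 4 libraries straddle 1.

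The remaining 39 histone genes stayed under 1 in every library. Of these, 10 were listed at 0 throughout: HIST1H2AA, HIST1H2BA, HIST1H4G, HIST1H4K, HIST2H2AA4, HIST2H2BA, HIST2H3A, HIST2H3C, HIST2H4B and HIST3H3. HIST1H4K and HIST2H2AA4 have the same coding sequence as HIST1H4J and HIST2H2AA3, which were expressed, and the pairs HIST2H3A and HIST2H3C, and HIST2H4A and HIST2H4B, are also identical, so the split between such copies is uncertain. The other 29 had values above 0 and below 1, and they include 10 H3 and H1 genes of the HIST1 cluster, among them HIST1H1B, HIST1H1A, HIST1H3B and HIST1H3A. Just inside the limit were HIST1H2BH (1.03 in the ΔTM-labelled library) and HIST1H2BN (1.04 in WT), and just outside it HIST1H2AJ (0.959 in 3NQ) and HIST1H4L (0.861 in WT). Genes of this paragraph that have no value of at least 1 are named to account for every member, after their values were seen.

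The KIAA1324 transcript, the check of the labels, had 2.86 FPKM for Luc, 11185 for WT, 8197 for 3NQ and a listed 0 for the ΔTM-labelled library. A deletion construct would still be read as KIAA1324, so that last value goes against its label or is a failed estimate, and the library is called by its label throughout. Among epithelial markers, KRT8 was at 8501, 4510, 6362 and 6912 and KRT18 at 3684, 2115, 2673 and 3610 in Luc, WT, 3NQ and the ΔTM-labelled library. Of the 5 epithelial markers, 2 were called lower in WT, and PTPRC, CD14, COL3A1 and CD3E were all at or under 0.153, with COL1A1 at 12.1 to 15.3. From the most frequent ratio among genes under an FPKM of 1, where a value stands for few fragments, depth was estimated at 0.966, 1.14 and 1.02 times that of Luc in WT, 3NQ and the ΔTM-labelled library. Absolute depth is unknown.

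The question of the design is what each form of KIAA1324 does to the transcriptome of these cells. Summed over all 71 histone genes, FPKM came to 117.2 for Luc, 190.0 for WT, 137 for 3NQ and 143 for the ΔTM-labelled library. WT stood highest, at 1.62 times Luc, and the other libraries lay between. The 5 genes that reach an FPKM of 5 in every library (HIST1H2BK, HIST1H2AC, HIST1H1C, HIST3H2A and HIST1H2BD) summed to 81.9, 134, 92.1 and 87.8 in the same order, and WT was highest. All others summed to 35.4, 56.0, 45.0 and 55.2, and there WT and the ΔTM-labelled library lay side by side. HIST1H2BC and HIST1H4H reached 5 in WT alone, and without them the rest summed to 29.3, 41.4, 37.2 and 47.4.

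By cluster, HIST1 carried most of the level, with sums of 98.9 for Luc, 164 for WT, 118 for 3NQ and 119 for the ΔTM-labelled library. HIST2 summed to 5.88, 9.13, 6.76 and 8.41 and HIST3 to 11.5, 16.1, 11.5 and 14.4 in the same order. WT was the highest library in each of these 3 clusters. Of the 3 expressed HIST2 genes, only 1 was higher in WT than in Luc, HIST2H2BE (2.26 in Luc and 4.42 in WT). The HIST3 sums rest almost wholly on HIST3H2A, at 11.3 in Luc and 15.1 in WT. HIST4H4, the lone gene of its cluster, encodes H4 and was at 0.944, 0.949, 1.26 and 1.04, with no library apart from the rest.

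By histone type, H2B genes summed to 49.0, 82.8, 61.5 and 51.1 in Luc, WT, 3NQ and the ΔTM-labelled library. H2A genes summed to 36.2, 61.5, 39.1 and 47.0 in the same order. The rise of the H2A sum in WT rests largely on HIST1H2AC (15.0 in Luc and 36.8 in WT). Of the 8 expressed H2A genes, 4 were higher in WT than in Luc. H4 genes summed to 9.16, 16.7, 11.04 and 14.8. H1 genes, at 19.8, 22.8, 18.4 and 21.6, varied least among the libraries. H3 genes had the lowest sums, 3.11, 6.23, 7.04 and 8.31, and they were the only type in which the other 3 libraries all lay at or above 2.00 times Luc. Of the 14 H3 genes 4 were expressed and none reached 5, so the H3 sums rest on values near 1.

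**Figure D2:**
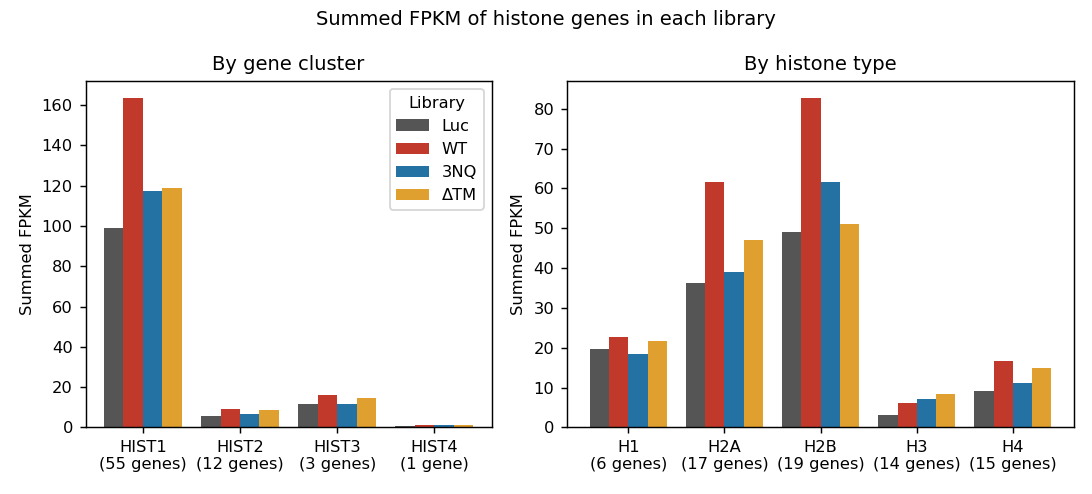
Summed FPKM (linear axis from 0) of the histone genes by cluster on the left and by histone type on the right, 1 bar for each library (ΔTM as labelled). HIST1 carries most of the sum, at 98.9 in Luc and 164 in WT, and WT has the highest bar for every type except H3, where the ΔTM-labelled library is highest.

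Changes of single genes were taken as log2((FPKM + 1)/(FPKM + 1)), which understates the change of low genes, and a gene was called where it differed at least 1.5-fold on that scale. In WT against Luc, 11 of the 32 expressed histone genes were called higher, where 3.36% of the 11769 genes tested were, and 1 was called lower, where 3.34% of all genes were. A gene that passed the limit of 1 in a single library had to be highest there, which favours a call. Of the 11, 2 passed in WT alone, HIST1H2BN and HIST3H2BB. Among the 7 histone genes that reached an FPKM of 5, 4 were called higher in WT, beside 2.97% of the 9403 genes at that level. HIST1H2BC and HIST1H4H reached 5 in WT alone, and of the 5 genes that reached it in every library 2 were called, HIST1H2AC and HIST1H2BD. With a 2-fold threshold 4 of the 11 calls remained (HIST1H2AC, HIST1H2BD, HIST1H2BC and HIST1H3D), and with a pseudocount of 5 only HIST1H2AC, HIST1H2BD and HIST1H2BC did. In a bulk library, more cells that make a transcript and more of it per cell cannot be told apart.

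The 4 are an H2A gene, a pair of H2B genes that splice past the stem-loop, and an H4 gene. HIST1H2AC (chr6:26124373-26139344, plus strand) encodes an H2A and had 15.0 FPKM for Luc, 36.8 for WT, 17.3 for 3NQ and 20.6 for the ΔTM-labelled library. WT stood apart, and the other 3 libraries ranged from 15.0 to 20.6. Its log2 ratios to Luc were 1.24 for WT, 0.20 for 3NQ and 0.43 for the ΔTM-labelled library, and by that of WT it ranked 36 of the 11769 genes. HIST1H2BD (chr6:26158349-26171577, plus strand), an H2B gene, was at 6.28, 15.3, 8.73 and 6.84, with log2 ratios of 1.16, 0.42 and 0.11. HIST1H2BC (chr6:26115101-26124154, minus strand), also H2B, was at 3.25, 8.11, 4.22 and 4.15, with log2 ratios of 1.10, 0.29 and 0.28. HIST1H4H (chr6:26281283-26285762, minus strand), an H4 gene, was at 2.81, 6.51, 3.64 and 3.63, with log2 ratios of 0.98, 0.29 and 0.28. In all 4 genes WT was at 2.32 to 2.49 times Luc before the pseudocount, and 3NQ and the ΔTM-labelled library lay above Luc but nearer to it than to WT.

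The other 3 genes at this level moved less. HIST1H2BK (chr6:27106073-27114619, minus strand), the H2B gene of the highest level, had 30.2 FPKM for Luc, 45.4 for WT, 38.3 for 3NQ and 26.9 for the ΔTM-labelled library, and its log2 ratio of 0.57 in WT fell just short of the call. Its span overlaps HIST1H4I on the opposite strand, and the library kit does not mark strand. HIST1H1C (chr6:26055968-26056699, minus strand), the main H1 gene here, was at 19.0, 21.4, 16.6 and 19.2. HIST3H2A (chr1:228645065-228645560, minus strand), an H2A gene, was at 11.3, 15.1, 11.1 and 14.2, with a log2 ratio of 0.39 in WT. In HIST1H1C and HIST3H2A no library stood apart from the rest.

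**Figure D3:**
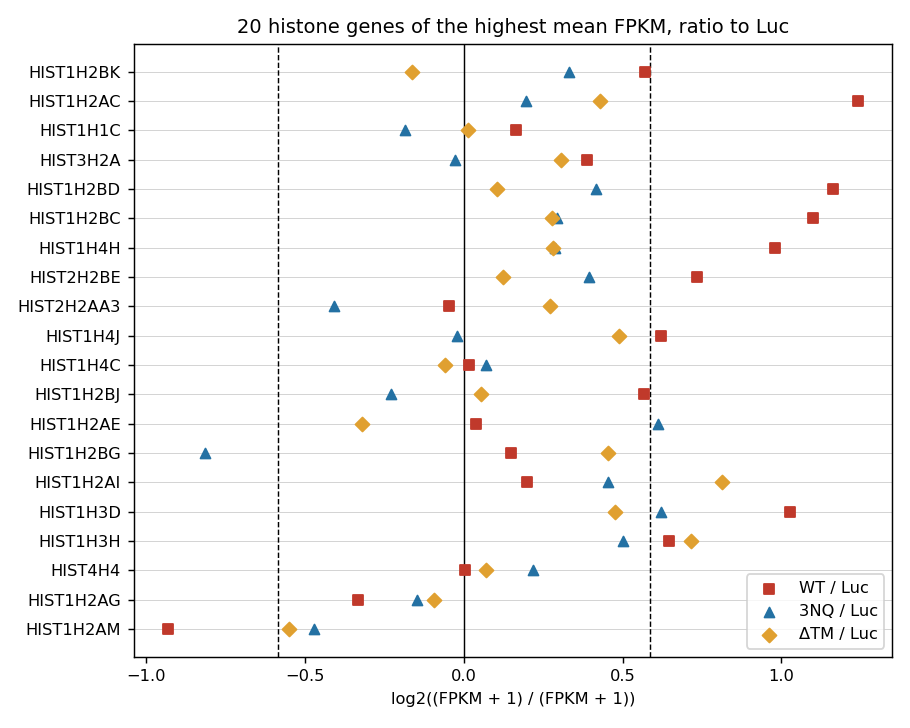
Log2 ratio to Luc, with a pseudocount of 1, of the 20 histone genes of the highest mean FPKM in WT, 3NQ and the ΔTM-labelled library. Dashed lines mark a 1.5-fold difference, and WT lies farthest right for HIST1H2AC (1.24), HIST1H2BD (1.16), HIST1H2BC (1.10) and HIST1H4H (0.98), while in the lower rows the order of the 3 libraries changes from gene to gene.

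Below an FPKM of 5, 7 more were called higher in WT. HIST2H2BE, an H2B gene that reads through its stem-loop, was at 2.26, 4.42, 3.28 and 2.55 in Luc, WT, 3NQ and the ΔTM-labelled library, a log2 ratio of 0.73 in WT. HIST1H4J, an H4 gene whose sequence is shared with HIST1H4K, was at 1.76, 3.25, 1.72 and 2.88. HIST1H3D, an H3 gene whose span overlaps HIST1H2AD, was at 0.534, 2.12, 1.36 and 1.13. For HIST1H3D, Luc was the library apart, below all 3 others. The remaining 4 (HIST1H3H, HIST1H4B, HIST1H2BN and HIST3H2BB) did not exceed 1.46 in WT, and their log2 ratios ran from 0.60 to 0.91. The gene called lower was HIST1H2AM, at 1.73, 0.433, 0.971 and 0.863, which shares 67.8% of its 50-base words with other histone genes. It passed the limit of 1 in Luc alone, so the filter favoured this call too.

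The H2B gene HIST1H2BJ, which splices past its stem-loop, was at 1.58, 2.81, 1.20 and 1.68, a log2 ratio of 0.57 in WT that was not called. HIST2H2AA3 was at 2.79, 2.67, 1.86 and 3.58, and HIST1H4C, an H4 gene whose transcripts stop at the stem-loop, was at 2.03, 2.07, 2.18 and 1.91. HIST1H4C was thus level across the libraries. HIST1H2AG, at 1.22, 0.765, 1.01 and 1.08, was lowest in WT, and its log2 ratio of -0.33 was not called.

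Of the 12 expressed genes with a transcript past the stem-loop, 8 were called higher in WT, 1 in 3NQ and 2 in the ΔTM-labelled library, where 3.36%, 1.77% and 1.54% of all genes were. The 8 include HIST1H2BN and HIST3H2BB, which passed the limit of 1 in WT alone. Of the 17 expressed genes with a stem-loop and no such transcript, 3 were called higher in WT, 4 in 3NQ and 6 in the ΔTM-labelled library. Summed FPKM of the first kind came to 47.3 for Luc, 97.1 for WT, 55.6 for 3NQ and 61.5 for the ΔTM-labelled library, and of the second kind 66.0, 89.7, 78.2 and 75.8. WT was thus at 2.05 times Luc for genes with a transcript past the stem-loop and at 1.36 times for those without. The second sum rests mostly on HIST1H2BK (30.2 in Luc and 45.4 in WT) and HIST1H1C (19.0 and 21.4), which are themselves known for polyadenylated transcripts. The first rests largely on HIST1H2AC, HIST1H2BD, HIST1H2BC and HIST1H4H. These ratios therefore describe a few genes more than either kind as a whole.

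A list of 8 histone genes generally known for polyadenylated transcripts was set with earlier results of these data known. It holds HIST1H1C, HIST1H2AC, HIST1H2BC, HIST1H2BD, HIST1H2BJ, HIST1H2BK, HIST1H4H and HIST2H2BE. Most of these are among the genes just described, so it is not independent of them. In WT 5 of the 8 were called higher, beside 3.36% of all genes, and all 8 had ratios above 0, beside 49.1% of all genes, with a median log2 ratio of 0.86 beside 0.00 over all genes tested. In 3NQ and in the ΔTM-labelled library none of the 8 was called, where 1.77% and 1.54% of all genes were called higher. The medians there were 0.29 and 0.11 beside -0.04 and -0.06 over all genes.

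In 3NQ against Luc, 5 of the 32 expressed histone genes were called higher, where 1.77% of all genes were, and 3 were called lower, where 2.57% of all genes were. None of the 7 genes that reach an FPKM of 5 was called, beside 1.52% of all genes at that level. The genes called higher were HIST1H2AE (1.42 in Luc and 2.69 in 3NQ), HIST1H3D (0.534 and 1.36), HIST1H4A (0.282 and 1.13), HIST1H3J (0.295 and 1.66) and HIST1H2BN (0.0878 and 0.884). Those called lower were HIST1H2BG (1.35 in Luc and 0.337 in 3NQ), HIST1H2AH (1.25 and 0.302) and HIST1H2BL (1.02 and 0.291). HIST1H3J passed the limit of 1 in 3NQ alone, and its span overlaps HIST1H2AM.

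In the ΔTM-labelled library against Luc, 8 expressed histone genes were called higher, where 1.54% of all genes were, and 0 were called lower, where 1.57% of all genes were. Again none of the 7 genes at an FPKM of 5 was called, beside 1.30% of all genes at that level. The called genes were HIST1H2AI (0.80 in Luc and 2.16 in the ΔTM-labelled library), HIST1H4A (0.282 and 1.55), HIST1H4D (0.312 and 1.76), HIST1H3G (0.585 and 1.62), HIST1H3H (0.569 and 1.58), HIST1H1E (0.343 and 1.21), HIST1H4B (0.355 and 1.16) and HIST1H2BN (0.0878 and 0.851). HIST1H4D, HIST1H3G and HIST1H1E, and HIST1H2BH, which was not called, passed the limit of 1 in this library alone. The library held 27 histone genes at an FPKM of at least 1, where Luc held 18, WT 20 and 3NQ 21.

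Low values of short genes stand for few fragments. Among the histone genes that span at most 1 kb, the lowest value above 0 of a gene had a median of 0.301 FPKM over 43 genes, so differences of under 1 FPKM in such genes can rest on a few fragments. HIST1H4D and HIST1H4B were listed at 0 in 3NQ and at up to 1.76 and 1.16 in the other libraries. All histone genes called in 3NQ or in the ΔTM-labelled library against Luc stayed under an FPKM of 5. The 11769 genes behind the shares set beside them had a median of the mean FPKM of 16.0. No share was taken among genes of similarly low level, and the part of low values in these counts was not tested.

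In WT against 3NQ, which bears on the N-glycosylation sites, 9 expressed histone genes were called higher, where 2.89% of all genes were, and 2 were called lower, where 1.58% of all genes were. Of the 7 genes at an FPKM of 5, the 4 called in WT against Luc were called here too, beside 2.40% of all genes at that level. HIST1H2BC and HIST1H4H are among the 7 through WT alone, and 2 of the 5 genes at that level in every library were called. The 4 had log2 ratios of 1.04 for HIST1H2AC, 0.80 for HIST1H2BC, 0.74 for HIST1H2BD and 0.69 for HIST1H4H. This comparison shares the WT library with that of WT against Luc. The other genes called higher were HIST1H2BJ (log2 ratio 0.80), HIST1H4J (0.64), HIST1H2BG (0.96), HIST1H4D (0.96) and HIST1H4B (1.04). HIST1H3G (-0.61) and HIST1H3J (-1.03) were called lower. HIST1H4D and HIST1H3G passed the limit of 1 only in the ΔTM-labelled library, which is not in this comparison, and HIST1H3J only in 3NQ. With the ΔTM-labelled library left out of the filter, 8 were higher and 1 lower.

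Histone H2A and H2B genes often lie head to head and share the DNA between their starts. Of these genes, 12 such pairs had starts facing each other across 189 to 346 bases. The intergenic DNA of 3 of them is shown, since their partners differed most in level or moved together. Capitals mark CCAAT (or ATTGG on the other strand), the octamer ATTTGCAT (or ATGCAAAT), known to bind POU factors in H2B promoters, and TATAAA (or TTTATA), each searched on both strands with overlaps counted. All 3 stretches are the plus strand of GRCh37, in order chr6:27114620-27114860, chr6:26124155-26124372 and chr1:228645561-228645807.
HIST1H2BK and HIST1H2AH: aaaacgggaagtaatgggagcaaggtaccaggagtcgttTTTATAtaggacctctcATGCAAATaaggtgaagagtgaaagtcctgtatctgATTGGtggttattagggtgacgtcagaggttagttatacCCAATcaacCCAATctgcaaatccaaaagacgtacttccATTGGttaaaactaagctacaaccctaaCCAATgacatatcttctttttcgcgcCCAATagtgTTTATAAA
HIST1H2BC and HIST1H2AC: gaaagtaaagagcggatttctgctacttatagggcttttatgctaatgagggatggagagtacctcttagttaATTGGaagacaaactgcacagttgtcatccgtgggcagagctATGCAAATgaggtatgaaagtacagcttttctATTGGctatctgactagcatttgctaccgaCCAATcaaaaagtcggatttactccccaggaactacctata
HIST3H2A and HIST3H2BB: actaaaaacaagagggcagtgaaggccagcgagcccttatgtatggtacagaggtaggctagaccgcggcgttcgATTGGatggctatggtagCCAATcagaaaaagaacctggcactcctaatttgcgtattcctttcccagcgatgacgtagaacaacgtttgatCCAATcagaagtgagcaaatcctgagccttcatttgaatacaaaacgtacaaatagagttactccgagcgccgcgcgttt

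In several pairs the partners stood at different levels. Of the 7 pairs in which a partner had a mean FPKM of at least 1, HIST1H2BK and HIST1H2AH were farthest apart. HIST1H2BK ranged from 26.9 to 45.4 and HIST1H2AH from 0.302 to 1.30, a ratio of the means of 41.6. HIST3H2A ranged from 11.1 to 15.1 and HIST3H2BB from 0.173 to 1.06, a ratio of 27.9. HIST2H2BE had a mean of 3.13 and its partner HIST2H2AC 0.402, a ratio of 7.78. The ranges of the partners over the 4 libraries did not overlap in these 3 pairs or in HIST1H2AC and HIST1H2BC. They overlapped in the rest of the 7 pairs. In HIST1H2AC and HIST1H2BC both partners were expressed in every library, with means of 22.4 and 4.93, and both were called higher in WT. In HIST1H2AE and HIST1H2BG the means of 1.63 and 1.38 lay within the spread over libraries, and in 3NQ the H2A partner was called higher and the H2B partner lower.

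**Figure D4:**
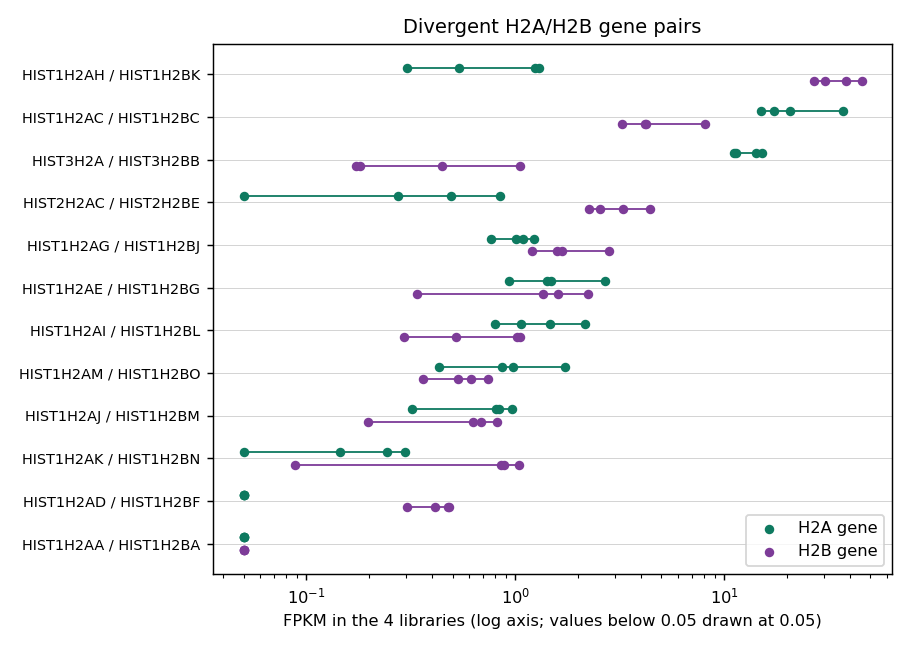
FPKM (log axis) of both partners of the 12 divergent H2A/H2B gene pairs, 1 point for each of the 4 libraries joined by a line, ordered by the higher mean. At the top HIST1H2BK lies between 26.9 and 45.4 while HIST1H2AH stays at or under 1.30, and in HIST1H2AC and HIST1H2BC both partners lie above 3.

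Over promoters of 250 bases before to 50 bases after the listed start, CCAAT was found in 84.5% of the 71 histone genes and in 35.0% of all 23356 promoters of that length. The octamer was found in 38.0% of histone genes and 2.08% of all promoters, and TATAAA in 63.4% and 11.1%. By type, the octamer was in 15 of 19 H2B and 10 of 17 H2A promoters, which overlap in divergent pairs, in 2 of 14 H3 promoters and in none of the H1 and H4 promoters searched. CCAAT was in every H1, H2B and H3 promoter but in 5 of 15 H4 promoters.

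Genes around the histone genes were read from lists set with earlier results of these data known. The first holds replacement variants, histones that can also be made outside DNA replication from polyadenylated mRNA. Of these, 19 genes were in the table and 10 were expressed. None was called in any of the 4 comparisons, where 1.54% to 3.36% of all genes were called in each direction, so none of 10 is near that share. In WT 7 of the 10 had ratios below 0, beside 50.9% of all genes, with a median log2 ratio of -0.24 beside 0.00 over all genes. The highest ratios were of H2AFY, which encodes macroH2A (184.5, 215, 190.3 and 182 in Luc, WT, 3NQ and the ΔTM-labelled library), and H3F3B, which encodes the variant H3.3 (609.7, 687, 615 and 547). The lowest were of CENPA, the centromeric H3 (48.6, 32.9, 37.02 and 40.0), and H2AFX, whose protein is phosphorylated at DNA breaks (116, 80.9, 110.0 and 119.5). CENPA was lowest in WT, at a log2 ratio of -0.55, and H2AFX at -0.51.

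The second list holds 27 genes of histone gene transcription and histone mRNA processing, all expressed. None was called in any comparison, where 1.54% to 3.36% of all genes were called in each direction. In WT 20 of 27 had ratios below 0, beside 50.9% of all genes, with a median of -0.15. The lowest were CASP8AP2, a factor needed for histone gene expression (10.48, 6.98, 7.72 and 7.77), and CCNE2, a cyclin of the start of DNA replication (10.4, 7.47, 9.37 and 10.1). The highest were ZCCHC6, an enzyme that adds uridines to RNA ends (19.1, 22.5, 18.3 and 19.0), and UPF1, a helicase of mRNA decay (61.3, 71.4, 57.4 and 60.1). SLBP, the protein that binds the stem-loop, was named after its values were seen, and it was at 80.5, 64.5, 74.5 and 75.8.

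The third list holds 25 histone chaperones, proteins that carry histones to and from DNA, all expressed. In WT 2 were called lower, beside 3.34% of all genes, and none higher, beside 3.36%. Of the 25, 19 had ratios below 0, beside 50.9% of all genes, with a median of -0.17. ASF1B, which hands H3 and H4 to other chaperones, was at 30.5, 16.0, 22.1 and 27.4, a log2 ratio of -0.89. NASP, which binds H3, H4 and linker histone, was at 176, 116, 132 and 179.9, a log2 ratio of -0.60. For ASF1B, WT was lowest and 3NQ next. The highest ratios in this list were of UBN2 (2.89, 3.62, 2.93 and 2.32) and DAXX (30.5, 35.0, 32.9 and 29.4), which serve the deposition of H3.3. No chaperone was called in 3NQ or in the ΔTM-labelled library, where 1.54% to 2.57% of all genes were called in each direction. Beside these lists, KRT8 and KRT18 were lower in WT too, and their part in the histone values was not tested.

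**Figure D5:**
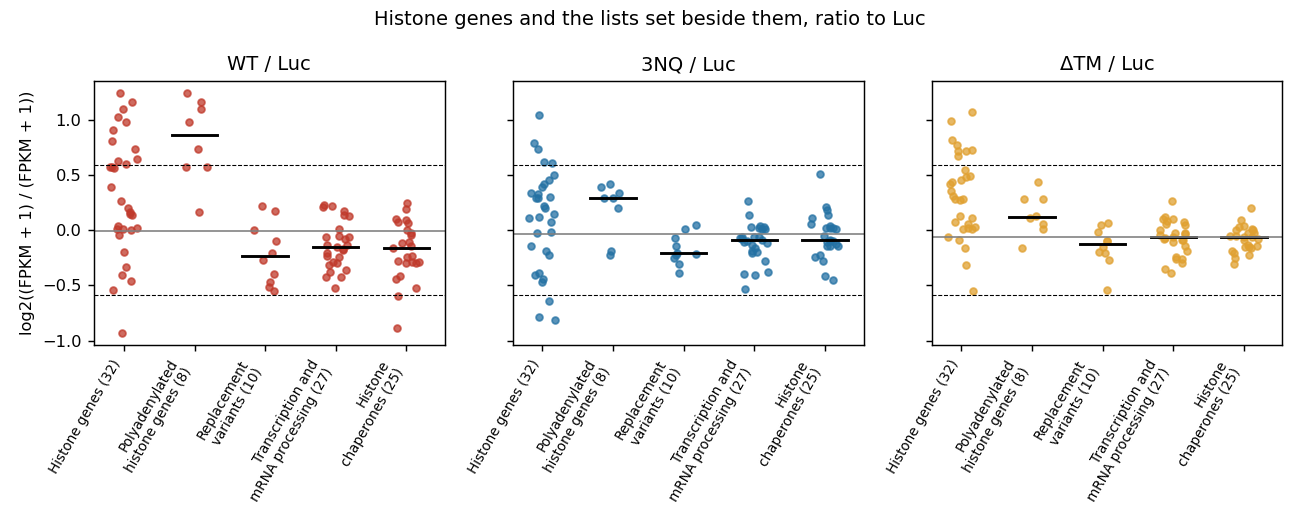
Log2 ratio to Luc, with a pseudocount of 1, in WT, 3NQ and the ΔTM-labelled library for the 32 expressed histone genes, the 8 with known polyadenylated transcripts, and the expressed replacement variants (10), genes of transcription and mRNA processing (27) and chaperones (25). Points are genes, black bars medians (not drawn for the 32), the grey line the median over all genes tested and dashed lines 1.5-fold. In WT the polyadenylated histone genes have a median of 0.86 and the last 3 lists have medians of -0.24, -0.15 and -0.17. All lists were set with earlier results of these data known, and 5 of the 8 polyadenylated genes are among the calls in WT.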

How the data were processed

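The authors captured poly(A) RNA of MKN28 cells on oligo(dT) and sequenced 4 libraries, 1 for each line. Per the submitters' processing notes and the study's methods, reads were mapped to GRCh37 with TopHat, and Cufflinks 2.1.1 gave the deposited FPKM of Ensembl genes, with non-coding regions masked and multi-mapped reads and fragment bias corrected. These corrections divide reads among near-identical histone genes. No counts were used, and 0 columns of other samples were left out.

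Ratios took a pseudocount of 1, genes had to reach 1 FPKM somewhere, and calls a 1.5-fold ratio. No test was run, since each group has 1 library. The call step was checked on simulated data, with changes larger than 1.5-fold and only in genes with a mean FPKM of at least 5. That check gives no error rate for the calls made here and does not cover genes of lower level. Of the 71 histone genes, 68 were matched to GENCODE 44 (37 by Ensembl ID, 31 by HGNC number). Genes were named if among the 20 highest by mean or called, and from each list by the 2 highest and 2 lowest ratios in WT. Members and lists were chosen with earlier results of these data known. Python 3.11.15, numpy 2.4.6, pandas 2.3.3, scipy 1.17.1 and matplotlib 3.10.9 were used.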

Additional observations from a re-analysis of the deposited data

How the results depend on the processing

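With 1 library for each line and no counts, neither an error nor a counting interval can be given, and low values limit what can be said of histone genes under an FPKM of 5. The calls were redone at 2-fold, with a pseudocount of 0.1 or 5, without a filter, with a filter at an FPKM of 5, after rescaling by the median of ratios or by the upper quartile, with 3NQ and the ΔTM-labelled library averaged as the control of WT, and, chosen after seeing the data, with a filter that left out the ΔTM-labelled library. Counts within 1.5 times, and log2 ratios of sums within 0.1, are taken as unmoved. The cause of the moves was not tested, except that a larger pseudocount or threshold and a stricter filter leave fewer genes by construction. No paired analysis was possible because each group has 1 library.

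Of 39 calls of single histone genes, none changed direction. Only the rescalings and the averaged control could have changed one, since a threshold, filter or pseudocount leaves the sign of a ratio as it is. With either rescaling all 39 stayed calls, with a pseudocount of 5 only 4 did, and with a 2-fold threshold 9 did, while of the 12 calls in WT against Luc 5 stayed calls against the averaged control. At 2-fold the genes called higher numbered 4 in WT against Luc, 1 in 3NQ, 1 in the ΔTM-labelled library and 2 in WT against 3NQ, and those called lower 0, 0, 0 and 1. With a pseudocount of 5, 3, 0, 0 and 1 were higher and 0 were lower in each. With a pseudocount of 0.1, 9 were higher in 3NQ and 14 in the ΔTM-labelled library, and 5, 6, 1 and 6 were lower. At an FPKM of at least 5, 4, 0, 0 and 4 were higher and 0 lower. Against the mean of 3NQ and the ΔTM-labelled library, 6 were higher and 3 lower in WT. Without the ΔTM-labelled library in the filter, 28 genes were tested and 1 was lower in WT against 3NQ.

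For sums, leaving out HIST1H2BK moved the log2 ratio of the ΔTM-labelled library to 0.41 over all members (from 0.28), 0.42 in HIST1 and 0.35 in H2B, and that of WT to 0.96 in H2B. Leaving out genes of identical coding sequence moved HIST2 to 0.89 in WT and 0.55 in 3NQ. A pseudocount of 5 moved HIST2 to 0.38 in WT and 0.30 in the ΔTM-labelled library, H3 to 0.47, 0.57 and 0.71 in WT, 3NQ and the ΔTM-labelled library, and H4 to 0.61 in WT and 0.49 in the ΔTM-labelled library. A pseudocount of 0.1 moved H3 to 0.98, 1.15 and 1.39 in the same order. Rescaling moved no sum.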
